A study of Mus musculus with 15 samples.

Results

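Innate lymphoid cell progenitors (ILCP, 2 libraries) were compared with specified early innate lymphoid progenitors (sEILP, 2 libraries) over every gene of the deposited table. The 4 libraries were chosen by their labels from 15 libraries in all, and no expression value was used in choosing them. The 15 libraries are bulk RNA-seq of progenitors sorted from the bone marrow of C57BL/6 mice. Both gates kept Lin- cells that carried Kit, 2B4, the integrin a4b7 and the Tcf7 reporter (Kit+, 2B4+, a4b7+ and Tcf7+). The sEILP cells lacked Thy1 (Thy1-), were low for the Zbtb16 reporter and high for Flt3 (Zbtb16low and Flt3high), and came from mice of the genotype Tcf7GFP Zbtb16GFP. The ILCP cells were positive for Thy1 and the IL-7 receptor (Thy1+ and IL-7Ra+) and came from mice of the genotype Tcf7EGFP/+. Committed EILP (cEILP, 3 libraries, Zbtb16high, Flt3low and Thy1-, also Tcf7GFP Zbtb16GFP) lie between these stages in the study's scheme and are given beside them. Reporter strain and stage cannot be told apart, because no strain was used for both stages. The labels do not say that the libraries of a group came from separate animals, so p-values measure the spread between these libraries, which may be technical.

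Innate lymphoid cells (ILC) are lymphocytes that make the same cytokines as helper T cells but do not use a rearranged antigen receptor. They arise from lymphoid progenitors that switch on Tcf7, which encodes TCF-1, and later factors such as Id2, Gata3, Zbtb16 and Bcl11b. Early in this path cells still express genes of multipotent and myeloid or dendritic progenitors, and the title of the series places a commitment checkpoint within it.

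Values are the deposited log2 expression values. Their scale was read from the values as log2 CPM (counts scaled to the library total), quantile-normalized over the 15 libraries. The smallest value differs by library, from -4.83 to -4.41, and is shared by many genes, which are described as at the lowest value. The ILCP libraries had 2124 and 2224 of 12798 genes at that value, against 1497 and 1309 in sEILP. Low values above it can be shared too: in ILCP replicate 2, Flt3, Hoxa9, Spi1, Gbp3 and Rab44 all had the value -0.14. The size of differences that rest on such values is uncertain. Over the tested genes, Pearson's r was 0.85 between the sEILP libraries, 0.75 between the ILCP libraries and 0.67 to 0.70 between libraries of different stages, a description across genes, which are not independent replicates. Both sEILP libraries are in batch 1 of the labels, and ILCP has 1 library in each batch. All 4 Y-linked genes of the table were at the lowest value in both ILCP libraries and above it in both sEILP libraries, and Xist was 3.35 and 3.97 in sEILP and 6.04 and 4.73 in ILCP. Y-linked expression thus separates the stages completely, and its part in the results cannot be told apart from stage or strain. Basophil genes differed between the ILCP libraries: the protease gene Prss34 was 8.83 and -4.54 and Mcpt8 was 7.51 and -4.54, with replicate 2 at its lowest value for both, while in sEILP Prss34 was -3.29 and -4.83 and Mcpt8 7.11 and 6.69.

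ILCP and sEILP differed at many genes, with more of them lower in ILCP. Of 12572 tested genes, 234 were higher in ILCP (1.86%) and 386 lower (3.07%), or 620 in all (4.93%), at a Benjamini-Hochberg adjusted p under 0.05 in a limma model of all 15 libraries with the batch as a term. Of the 620, 554 moved by at least 1 log2 unit, 211 up and 343 down. Every called gene had its ILCP libraries on one side of its sEILP libraries. That separation alone is common here: 27.0% of tested genes had both ILCP libraries above both sEILP libraries, and 26.2% had both below. In 65 of the genes called higher, both sEILP libraries were at their lowest value, and in 72 of those called lower both ILCP libraries were. No fold is given for such genes. Leaving out 1 of the libraries at the lowest value hardly changes the level of that group. A call of such a gene that holds without any single library is therefore weak support. Among the others, 149 genes called higher and 284 called lower had all 4 libraries above the lowest value.

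**Figure D1:**
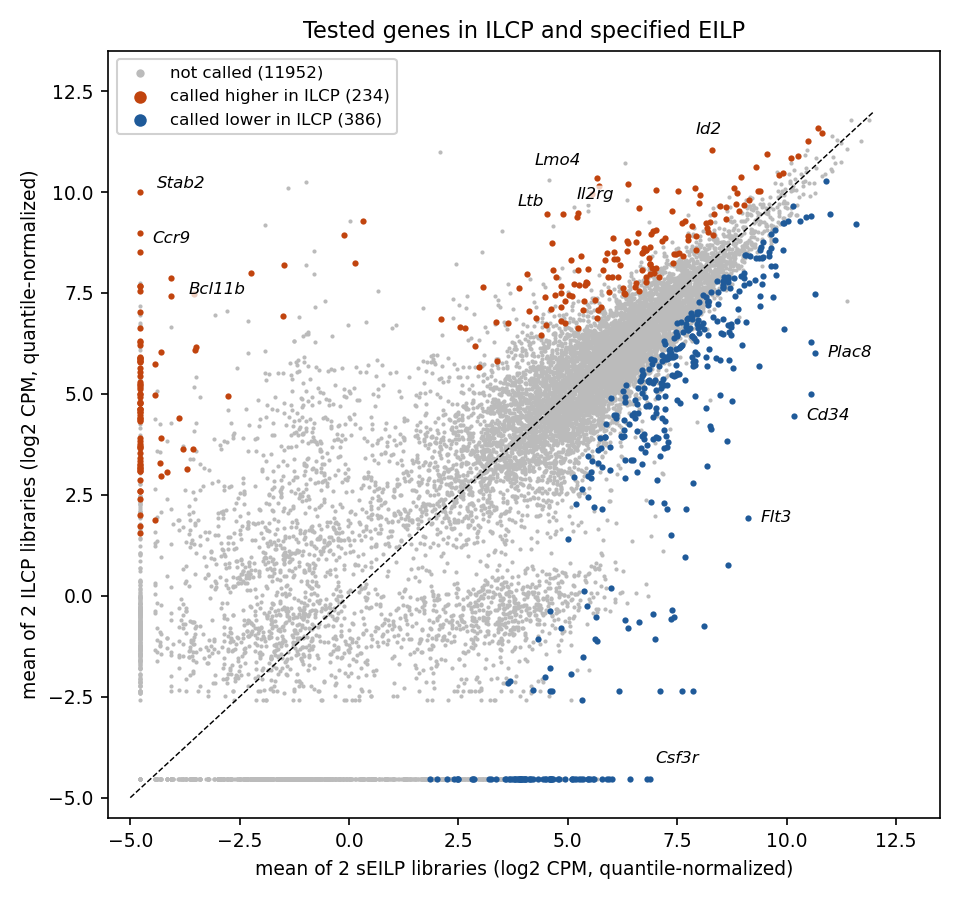
Mean level of each tested gene in the 2 sEILP libraries (x axis) and the 2 ILCP libraries (y axis), both in log2 CPM after quantile normalization, with 1 point per gene and the line of equality dashed. Genes called higher in ILCP (234, orange) lie above the line and genes called lower (386, blue) below it, and those at the edges are at the lowest value of 1 group.

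The model shares its estimate of the spread over all 15 libraries, so genes that vary in other groups can miss the threshold while their ILCP and sEILP libraries lie far apart. A limma fit of the 4 libraries alone, which had no batch term, called 286 genes higher (2.57% of 11142 tested) and 316 lower (2.84%). Both fits called 283 genes, 141 higher and 142 lower. The fit of the 4 libraries alone thus differs from the shared fit in the batch adjustment as well as in the spread. Which of these moved the call of a gene was not tested. Within batch 1, with a single ILCP library against the 2 of sEILP, 125 genes were higher and 644 lower. With the Y-linked level as a further term, 101 were higher and 232 lower. Leaving out sEILP replicate 1 left 84 higher and 153 lower, and leaving out sEILP replicate 2 left 82 and 154. Without ILCP replicate 1, 94 were higher and 501 lower, and without ILCP replicate 2, 147 and 549.

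The genes of the sort gates came first, as a check of the labels. Thy1, which defines the ILCP gate, was 4.99 and 4.85 in ILCP and 1.46 and -4.83 in sEILP, where the second value is the lowest (adjusted p = 0.0905, limma). Flt3, the cytokine receptor that the sEILP gate required to be high, was 9.47 and 8.78 in sEILP and 3.98 and -0.14 in ILCP, a called difference of -6.47 ± 0.81 SE with an adjusted p of 0.000730. Il7r, the IL-7 receptor alpha chain of the ILCP gate, was 6.03 and 6.56 in sEILP and 10.58 and 10.84 in ILCP. Its groups did not overlap, but it was not called in the shared fit (adjusted p = 0.520) and was called in the fit of the 4 libraries alone (adjusted p = 0.0363). With the Y-linked level as a term its fitted difference was -0.20 in place of 3.62. Zbtb16, which encodes PLZF, was 4.28 and 4.60 in sEILP, 6.96, 6.80 and 6.71 in cEILP and 6.62 and 7.32 in ILCP (adjusted p = 0.0633). Tcf7 was 9.98 and 10.23 in sEILP and 9.89 and 10.17 in ILCP, so its ranges overlapped, with an adjusted p of 0.823. Of the integrin chains behind a4b7, Itga4 was lower in ILCP (9.71 and 9.76 against 8.22 and 8.13, adjusted p = 0.00147), while Itgb7 was 9.81 and 9.79 against 9.95 and 10.09 (adjusted p = 0.573). Kit was 7.91 and 8.60 in sEILP and 8.88 and 9.11 in ILCP (adjusted p = 0.498), and Cd244, which encodes 2B4, 7.34 and 6.63 and then 3.51 and 6.22 (adjusted p = 0.0533). In all, 2 of 9 gate genes were called, both lower, against 3.07% of all tested genes called lower.

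Transcription factors of the innate lymphoid path mostly had positive differences, although 16 of 20 were not called. Of 20 tested regulators, 3 were called higher (Bcl11b, Id2 and Ahr), against 1.86% of all tested genes, and 1 lower (Nfil3), against 3.07%. In 16 the difference was positive, against 46.7% of all tested genes, and the median was 4.49 against -0.08. Bcl11b, a zinc finger factor required in T cells and ILC2, was -3.29 and -4.83 in sEILP, 5.23, 3.33 and 5.03 in cEILP and 7.42 and 8.35 in ILCP. Both ILCP libraries were thus far above sEILP, which lay at or near its lowest value (adjusted p = 0.00220). Id2, the inhibitor of E proteins that ILC development needs, rose from 8.37 and 8.24 to 10.84 and 11.23, by 2.67 ± 0.45 SE (adjusted p = 0.00505). Ahr, the aryl hydrocarbon receptor, was 4.17 and 5.22 in sEILP and 7.17 and 7.74 in ILCP (adjusted p = 0.0261). Ahr lost its call whichever of the 4 libraries was left out, with adjusted p up to 0.182. Nfil3, a bZIP factor that acts early in the path, fell from 9.60 and 9.13 to 5.09 and 6.30, a difference of -3.52 ± 0.66 SE (adjusted p = 0.00957), and lost its call without sEILP replicate 1 or without ILCP replicate 1 (up to 0.104).

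Other regulators had large, non-overlapping differences without a call in the shared fit. Gata3, the factor of ILC2 and T cells, was 6.31 and 6.38 in sEILP, 8.01, 8.01 and 8.02 in cEILP and 9.48 and 10.14 in ILCP (adjusted p = 0.0910, or 0.0413 in the fit of the 4 libraries alone). Rora, the orphan receptor needed for ILC2, was 4.52 and 4.61, then 8.44, 7.70 and 7.42, then 10.01 and 10.60 (adjusted p = 0.268, or 0.0266 with the 4 libraries alone). Both genes therefore had every cEILP library above both sEILP libraries and below both ILCP libraries. Ets1, which NK cells and ILC2 need, was -1.71 and 5.87 in sEILP and 10.92 and 11.06 in ILCP (adjusted p = 0.0687). Maf was -3.29 and 1.70 in sEILP and 7.78 and 8.18 in ILCP (adjusted p = 0.109), and Ikzf3, which encodes Aiolos, -4.72 and 2.73 in sEILP and 10.14 and 10.37 in ILCP (adjusted p = 0.125). In both genes the sEILP libraries were below both ILCP libraries, and the sEILP libraries differed from each other by several log2 units. Tox2 was -4.72 and 4.75 in sEILP, the first of these at the lowest value, and 9.17 and 9.42 in ILCP (adjusted p = 0.0545), while its relative Tox was 7.43 and 7.50 in sEILP and 8.23 and 8.64 in ILCP (adjusted p = 0.155).

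The start of transcription of some of these genes is shown for the letters that TCF-1 and GATA factors are known to bind, since both stages carry high Tcf7 and Gata3 was higher in value in ILCP. The stretches below, each of 80 bases out of the 250 before the RefSeq transcription start (build GRCm38.p6, the gene's own strand, 5′ to 3′), hold the TCF/LEF core CTTTGA or the GATA core AGATAA on either strand, in capitals. They overlap no annotated exon. Il1rl1 has 2 listed starts, and its stretch lies before the first listed. Bcl11b lies on the minus strand at chr12:108003461-108003540, Flt3 on the minus strand at chr5:147400626-147400705 and Csf3r on the plus strand at chr4:126024409-126024488. Il1rl1 lies on the plus strand at chr1:40429320-40429399, Ccr2 on the plus strand at chr9:124102049-124102128 and Cpa3 on the minus strand at chr3:20242185-20242264.
Bcl11b, TCF/LEF core, higher in ILCP: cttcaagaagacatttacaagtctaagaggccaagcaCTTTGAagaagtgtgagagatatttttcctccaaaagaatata
Flt3, TCF/LEF core read on the other strand, lower in ILCP: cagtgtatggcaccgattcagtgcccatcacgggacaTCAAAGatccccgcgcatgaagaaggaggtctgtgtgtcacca
Csf3r, TCF/LEF core read on the other strand, lower in ILCP: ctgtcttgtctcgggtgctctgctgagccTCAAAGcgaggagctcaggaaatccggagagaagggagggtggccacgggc
Il1rl1, GATA core, higher in ILCP: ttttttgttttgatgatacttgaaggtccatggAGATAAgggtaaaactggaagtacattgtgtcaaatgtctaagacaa
Ccr2, GATA core read on the other strand, higher in ILCP: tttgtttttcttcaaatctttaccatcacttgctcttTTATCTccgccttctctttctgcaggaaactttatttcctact
Cpa3, GATA core, lower in ILCP: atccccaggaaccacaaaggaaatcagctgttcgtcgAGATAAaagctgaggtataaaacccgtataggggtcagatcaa

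Each core stands before genes of both directions. Over the 250 bases before the first listed start, CTTTGA was found on either strand in 976 of 9140 tested genes with a RefSeq window (10.7%), in 27 of 176 genes called higher (15.3%) and in 27 of 299 called lower (9.03%). AGATAA was found in 548 of 9140 (6.00%), 13 of 176 (7.39%) and 20 of 299 (6.69%). The cores overlapped each other in 7 windows. A match is a description of letters, and binding of either factor was not measured here.

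ILC2 are the innate cells of type 2 immunity. Of 8 of their genes tested, 5 were called higher in ILCP and none lower, with a median of 3.78, or 2.95 without the gene whose sEILP values were all at the lowest value. The values over all tested genes were 1.86% higher, 3.07% lower and a median of -0.08. Arg1, the arginase of ILC2, was at the lowest value in both sEILP libraries, 3.66, 4.06 and 2.31 in cEILP and 8.30 and 9.68 in ILCP (adjusted p = 0.0233). Lmo4, a LIM-only cofactor, rose from 5.73 and 5.59 to 10.13 and 10.58, a 24.3-fold difference (log2 difference 4.60 ± 0.46 SE, adjusted p = 0.000138). Il17rb, a chain of the IL-25 receptor, rose from 6.05 and 6.08 to 8.50 and 8.54 (adjusted p = 0.00957). Il1rl1, the IL-33 receptor, was -4.72 and 0.22 in sEILP and 8.07 and 7.93 in ILCP (adjusted p = 0.0379), with all cEILP libraries at the lowest value. Icos, a costimulatory receptor, was -2.32 and 2.11 in sEILP and 9.13 and 8.75 in ILCP (adjusted p = 0.00731). Lmo4 kept its call whichever library was left out. Arg1 lost it in all 4 cases (up to 0.117), Il1rl1 in all but the case without sEILP replicate 2 (up to 0.253), Il17rb without either sEILP library (up to 0.0715) and Icos without sEILP replicate 1 (0.0675).

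ILC3 and lymphoid tissue inducer cells make lymphotoxin and build lymphoid organs. Of 10 of their genes tested, 4 were called higher in ILCP and none lower, with a median of 4.06, or 2.79 without the 2 genes whose sEILP values were all at the lowest value. For comparison, 1.86% of all tested genes were called higher and 3.07% lower, with a median of -0.08. Ltb, one lymphotoxin chain, rose from 4.85 and 4.93 to 9.52 and 9.40, by 4.59 ± 0.69 SE (adjusted p = 0.00242), and was 4.92, 4.17 and 3.91 in cEILP. Lta, the other chain, was at the lowest value in both sEILP libraries and 5.57 and 6.05 in ILCP (adjusted p = 0.00490). Il23r, a chain of the IL-23 receptor, was likewise at the lowest value in sEILP and 4.91 and 5.09 in ILCP (adjusted p = 0.0186). Ccr6, a chemokine receptor of ILC3, was -2.22 and -4.83 in sEILP and 7.38 and 4.79 in ILCP (adjusted p = 0.0309). Ltb and Lta kept their calls without any single library, whereas Ccr6 lost its call in all 4 cases (up to 0.190) and Il23r in all but the case without ILCP replicate 2 (up to 0.106).

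For group 1 genes, those of ILC1 and natural killer cells, no tested gene was called higher. Of 16 tested, 13 had a positive difference, against 46.7% of all tested genes. The median was 2.18 against -0.08, and 1 was called lower, against 3.07% of all tested genes. The fit of the 4 libraries alone called 2 of the 16 list genes higher, against 2.57% of all genes it tested. Ncr1, which encodes NKp46, was at the lowest value in both sEILP libraries and 6.29 and 7.03 in ILCP (adjusted p = 0.0537). Tyrobp, the DAP12 adaptor that myeloid cells share, fell from 8.26 and 7.83 to 6.53 and 6.85 (adjusted p = 0.0262), and kept its call only without ILCP replicate 2 (up to 0.195).

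Cytokine receptor chains moved in both directions. Of 25 tested, 4 were called higher and 4 lower, with a median of -0.37, or 0.23 without the 3 genes that were at the lowest value throughout a group and 0.12 without ILCP replicate 1. Of all tested genes, 1.86% were called higher and 3.07% lower, and the median was -0.08. Il2rg, the common gamma chain shared by the receptors of IL-2, IL-7 and IL-15, rose from 6.62 and 6.64 in sEILP through 7.55, 7.59 and 7.43 in cEILP to 9.79 and 9.44 in ILCP, a 7.78-fold difference (adjusted p = 0.000118). Tgfbr2, a chain of the TGF-beta receptor, rose from 4.90 and 4.36 to 8.79 and 8.69, 15.4-fold (adjusted p = 0.000383). Ifngr1, the interferon gamma receptor chain, rose from 7.56 and 7.46 to 9.98 and 10.09 (adjusted p = 0.00130), and Il27ra from 4.28 and 5.18 to 7.70 and 8.11 (adjusted p = 0.0379). The first 3 kept their calls without any single library, and Il27ra lost its call in all 4 cases (up to 0.217). Il18r1, the IL-18 receptor, was 5.41 and 4.88 in sEILP and 8.13 and 7.96 in ILCP, just short of the threshold (adjusted p = 0.0508).

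The receptor chains that fell were Il1rap, Il21r, Il6ra and Il10ra. Il1rap, the accessory chain of the IL-1 and IL-33 receptors, was 4.45 and 5.10 in sEILP and at the lowest value in both ILCP libraries (adjusted p = 6.44e-05). Il21r was 5.12 and 5.07 in sEILP and at the lowest value in both ILCP libraries (adjusted p = 0.000249). Il10ra fell from 6.92 and 7.11 to 4.36 and 3.51, a difference of -2.76 ± 0.37 SE (adjusted p = 0.00116). Il6ra was 5.71 and 5.61 in sEILP and -4.55 and 2.32 in ILCP, where the first value is the lowest (adjusted p = 0.0260), and it kept its call only without ILCP replicate 2 (up to 0.136). Among JAK-STAT genes, which carry the signal of these receptors, 2 of 19 were called higher and 1 lower, with a median of 0.20. The shares over all tested genes were 1.86% and 3.07%, with a median of -0.08. Socs1, a feedback inhibitor, rose from 2.69 and 2.38 to 6.41 and 6.90 (adjusted p = 0.0264) and Stat4 from 5.59 and 4.47 to 7.79 and 7.11 (adjusted p = 0.0414), but both lost their calls in all 4 cases with a library left out (up to 0.137 and 0.250). Ptpn6, the phosphatase SHP-1, fell from 9.26 and 9.62 to 7.89 and 7.54 (adjusted p = 0.00333).

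Receptors that place cells in tissues differed as well. Of 21 chemokine receptors and homing molecules tested, 4 were called higher, against 1.86% of all tested genes, and 2 lower, against 3.07%. Their median was 2.11, against -0.08. Ccr9, the receptor for the gut and thymus chemokine CCL25, was at the lowest value in both sEILP libraries, -4.77, -4.83 and -4.14 in cEILP and 8.27 and 8.77 in ILCP (adjusted p = 0.000626). Its call held without any single library. Ccr2, a receptor for monocyte chemokines, rose from 6.26 and 6.48 to 10.12 and 10.29 (adjusted p = 0.0269). The 2 chains of the integrin LFA-1 rose together: Itgal from 8.86 and 8.74 to 10.21 and 9.98 (adjusted p = 0.0232) and Itgb2 from 7.18 and 7.24 to 9.03 and 8.67 (adjusted p = 0.0215). Ccr2 and Itgal lost their calls in all 4 cases with a library left out (up to 0.145 and 0.135), and Itgb2 in all but the case without ILCP replicate 2 (up to 0.123). Cx3cr1, the fractalkine receptor, was 4.81 and 3.62 in sEILP and at the lowest value in both ILCP libraries (adjusted p = 0.00153). Cxcr6, a marker of later ILC progenitors, was 2.02 and -4.83 in sEILP and 10.34 and 9.86 in ILCP (adjusted p = 0.116), and S1pr1, the receptor for exit into blood, was at the lowest value in sEILP and 5.91 and 6.42 in ILCP (adjusted p = 0.121).

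Of 18 costimulatory and inhibitory receptors, 2 were called higher, against 1.86% of all tested genes, and none lower, against 3.07%. Their median was 1.46, against -0.08. Tnfrsf25, the receptor for the cytokine TL1A, was at the lowest value in both sEILP libraries and 6.95 and 5.64 in ILCP (adjusted p = 0.00392). Cd226, the adhesion receptor DNAM-1, was also at the lowest value in sEILP and 6.67 and 6.60 in ILCP (adjusted p = 0.00648). Both held without any single library. Pdcd1, which encodes PD-1 and marks ILC progenitors, was 4.27 and 6.02 in sEILP, 8.77, 7.93 and 8.22 in cEILP and 9.34 and 9.91 in ILCP (adjusted p = 0.166, or 0.0481 with the 4 libraries alone).

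**Figure D2:**
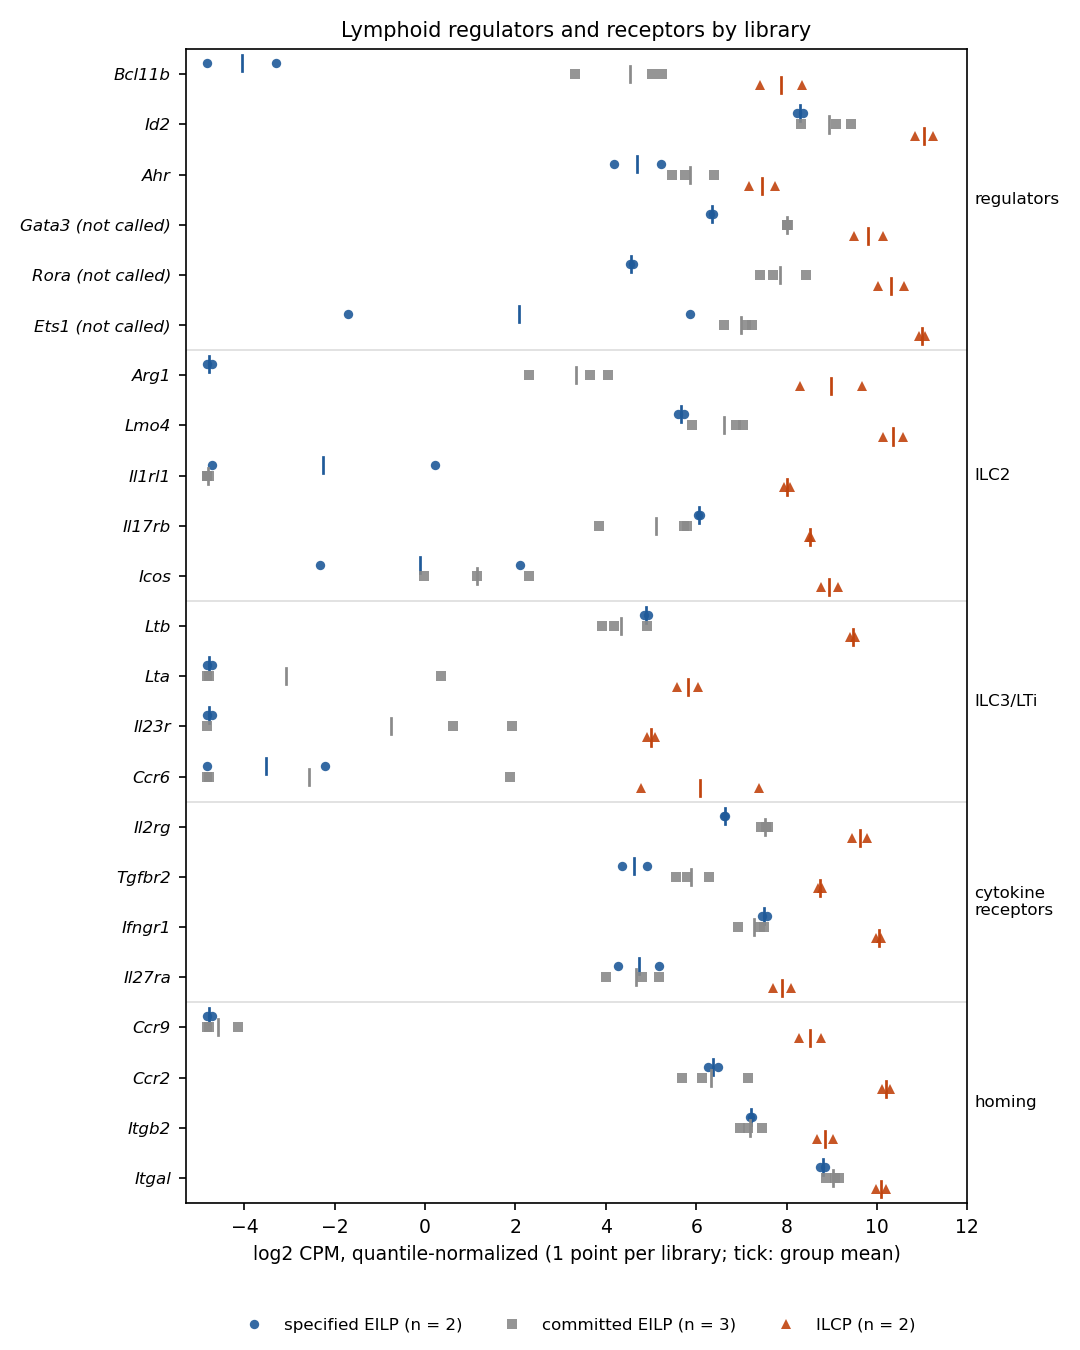
Log2 CPM, quantile-normalized (x axis), of regulators, ILC2 and ILC3 genes, cytokine receptors and homing receptors in each sEILP (circles, n = 2), cEILP (squares, n = 3) and ILCP (triangles, n = 2) library, with a tick at each group's mean. The ILCP libraries lie to the right of the sEILP libraries for all 23 genes drawn, and Gata3, Rora and Ets1 were not called in the shared fit.

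T lineage genes, several of which ILC share, gave 1 call, Txk, where 1.86% of all tested genes were called higher and 3.07% lower. Of 18 tested, 14 had a positive difference, against 46.7% of all tested genes. Their median was 3.44, against -0.08, and was 1.81 without sEILP replicate 1 and 0.66 with the Y-linked level as a term. Txk, a TEC family kinase, was at the lowest value in both sEILP libraries, 5.10, 5.47 and 4.03 in cEILP and 6.62 and 7.43 in ILCP (adjusted p = 0.0115), and kept its call only without ILCP replicate 2 (up to 0.0838). Skap1, an adaptor of the antigen receptor pathway, was -2.85 and 1.25 in sEILP and 8.38 and 8.70 in ILCP (adjusted p = 0.120). The summed linear level of the 18 T lineage genes was 608 and 659 in sEILP and 1744 and 1760 in ILCP, with 3 of the 18 at the lowest value in each sEILP library and 1 and 2 in the ILCP libraries. Among defining T cell genes, Cd3e was -2.75 and 3.45 in sEILP and 4.16 and 3.67 in ILCP, and Cd4 was at the lowest value in both sEILP libraries and in ILCP replicate 2 and 4.02 in ILCP replicate 1. The part of T cells in these values was not tested.

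T cell receptor genes were the list with the highest median, 5.64 over 29 segments, against -0.08 over all tested genes. Of the 29, 24 were positive, 4 were called higher and none lower. The shares over all tested genes were 46.7%, 1.86% and 3.07%. The 4 called segments were Tcrg-C4, Tcrg-V4, Trgj4 and Trbj1-2, parts of the gamma and beta loci. Tcrg-C4, a gamma constant region, was -2.85 and 3.50 in sEILP, 7.58, 6.86 and 7.45 in cEILP and 9.15 and 9.43 in ILCP (adjusted p = 0.0141). Tcrg-V4 was at the lowest value in both sEILP libraries and 5.86 and 5.88 in ILCP (adjusted p = 0.0240). Trbc1, a beta constant region, was 4.02 and 5.29 in sEILP and 9.10 and 9.23 in ILCP (adjusted p = 0.0730). Trbc2 was 3.08 and 4.18 in sEILP and 7.55 and 7.87 in ILCP (adjusted p = 0.0602), and Tcrg-C1 4.75 and 6.18 in sEILP and 9.72 and 9.36 in ILCP (adjusted p = 0.402). Segments of a locus can share reads, so single segments are uncertain. No called segment held its call without every library: Trbj1-2 and Trgj4 lost it in all 4 cases (up to 0.238 and 0.180), Tcrg-V4 in all but the case without ILCP replicate 2 (up to 0.161) and Tcrg-C4 without sEILP replicate 1 or ILCP replicate 1 (up to 0.0863).

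Among 27 tested genes of stem and multipotent progenitors, 8 were called lower and none higher, 19 were not called, 5 had a positive difference, and the median was -1.71. Over all tested genes 3.07% were called lower and 1.86% higher, 46.7% were positive and the median was -0.08. Cd34, the surface sialomucin of early progenitors, fell from 10.23 and 10.11 in sEILP through 8.93, 9.53 and 8.76 in cEILP to 5.22 and 3.68 in ILCP, 40.7-fold (log2 difference -5.35 ± 0.35 SE, adjusted p = 5.93e-06). Myb, a factor needed for progenitor growth, fell from 8.90 and 9.06 to 6.20 and 6.20, 6.55-fold (adjusted p = 5.65e-05). Sox4 fell from 8.57 and 8.74 to 6.85 and 6.57 (adjusted p = 0.000325), although cEILP lay higher than sEILP, at 9.27, 9.29 and 9.27. Mef2c, a factor of lymphoid and myeloid priming, fell from 8.54 and 8.41 to 4.25 and 5.71 (adjusted p = 0.00214), Hhex from 5.54 and 5.36 to 2.61 and 2.29 (adjusted p = 0.00400) and Hoxa9 from 5.06 and 4.15 to -0.64 and -0.14 (adjusted p = 0.00286). These 6 genes held their calls without any single library. Satb1, a chromatin organizer, fell from 8.67 and 8.79 to 5.88 and 7.42 (adjusted p = 0.00840) and kept its call only without ILCP replicate 2 (up to 0.0774). Cd93, a surface lectin, fell from 8.34 and 8.04 to 5.83 and 5.53 (adjusted p = 0.00792), and lost its call without sEILP replicate 1 or ILCP replicate 1 (up to 0.0757).

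Among 19 tested myeloid factors and surface proteins, 5 were called lower and none higher, 14 were not called, 3 had a positive difference, and the median was -2.38. The same values over all tested genes were 3.07% lower, 1.86% higher, 46.7% positive and a median of -0.08. Csf3r, the receptor of the neutrophil growth factor G-CSF, was 7.08 and 6.53 in sEILP, 5.21, 5.68 and 5.07 in cEILP and at the lowest value in both ILCP libraries (adjusted p = 5.93e-06). Cd68, a lysosomal protein of phagocytes, was 5.66 and 5.25 in sEILP and at the lowest value in both ILCP libraries (adjusted p = 0.000218). Ncf1, a subunit of the phagocyte oxidase, fell from 8.71 and 8.54 to 4.58 and 3.09 (adjusted p = 3.45e-05). Spi1, which encodes PU.1, the main factor of myeloid fate, fell from 7.72 and 7.68 to 4.43 and -0.14 (adjusted p = 0.00722). Csf3r, Cd68 and Ncf1 held without any single library. Spi1 lost its call without either sEILP library (up to 0.0540). Cebpa, a partner factor, was 5.03 and 4.40 in sEILP and 1.99 and 1.08 in ILCP (adjusted p = 0.0576).

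Of 14 granule genes of the neutrophil line, 2 were called lower, against 3.07% of all tested genes, with a median of -1.05. A positive difference was found in 3, against 46.7% of all tested genes. Both called genes act beyond granules of that line: Srgn, the granule proteoglycan of many blood cells, fell from 9.48 and 9.45 to 8.19 and 8.59 (adjusted p = 0.0131), and Calr, a chaperone of the endoplasmic reticulum, from 10.34 and 10.29 to 9.28 and 9.27 (adjusted p = 0.00242). Srgn kept its call only without ILCP replicate 2 (up to 0.133), and Calr held without any single library. Mpo, the myeloperoxidase, was 11.43 and 11.34 in sEILP and 9.16 and 5.46 in ILCP (adjusted p = 0.0698). Ctsg was 8.39 and 8.09 in sEILP and 5.90 and 3.80 in ILCP (adjusted p = 0.0573), and Prtn3 7.69 and 6.98 in sEILP and 5.04 and 3.23 in ILCP (adjusted p = 0.0545). In all 3 genes ILCP replicate 2 lay well below replicate 1, and both lay below sEILP. In bulk libraries, fewer cells of a type and less RNA per cell cannot be told apart. The summed linear level of the 20 myeloid factor and surface genes of the table was 1461 and 1302 in sEILP and 440 and 269 in ILCP, and that of the 14 granule genes 5479 and 5215 against 1876 and 1184.

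Genes of other blood lineages gave calls in each list. Over all tested genes, 1.86% were called higher and 3.07% lower. Among 17 dendritic cell genes 3 were called lower and 1 higher, with a median of -1.19. Irf8, the factor of dendritic cell and monocyte fate, fell from 10.84 and 10.28 in sEILP through 8.79, 9.75 and 7.76 in cEILP to 7.21 and 5.37 in ILCP, 13.2-fold (adjusted p = 0.000218), and held without any single library. Bcl11a, which plasmacytoid dendritic cells and B cells need, fell from 6.62 and 5.32 to 3.63 and 3.74 (adjusted p = 0.0400) but kept its call only without sEILP replicate 2 (up to 0.270). Cox6a2 was 4.10 and 3.73 in sEILP and at the lowest value in ILCP (adjusted p = 0.0149). It kept its call only without ILCP replicate 2 (up to 0.105). Xcr1, a chemokine receptor of cross-presenting dendritic cells, went the other way, from the lowest value in both sEILP libraries to 3.24 and 6.03 (adjusted p = 0.00936). It lost its call without either sEILP library (up to 0.0653), and failed the filter on low values without either ILCP library. It entered the test only through the group where it was high, so its call supports nothing. The summed level of the dendritic list was 2193 and 1531 in sEILP and 301 and 300.2 in ILCP.

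Among 16 B lineage genes 1 was called, lower, against 3.07% of all tested genes, with a median of -1.10 that turned positive in 1 other setting, and 10 of the 16 were at the lowest value throughout 1 group. It was Dntt, the terminal transferase of antigen receptor joining, at 9.05 and 8.26 in sEILP and -4.55 and 6.10 in ILCP, the first of these the lowest value (adjusted p = 0.0455). It kept its call only without ILCP replicate 2 (up to 0.199). The median of 7 mast cell and basophil genes was 0.85 and changed sign in 6 other settings, and 1 was called, Cpa3, the mast cell carboxypeptidase, which fell from 9.89 and 9.99 to 6.73 and 6.49, 9.65-fold (adjusted p = 0.00207). Its call held without either ILCP library, and the list's summed level, which moved between the ILCP libraries, was 1093 and 1141 in sEILP and 785 and 94.9 in ILCP. Of 14 erythroid and megakaryocyte genes 1 was called lower, Itga2b, the platelet integrin CD41, at 5.43 and 6.36 in sEILP, 7.24, 7.10 and 7.48 in cEILP and the lowest value in both ILCP libraries (adjusted p = 0.00680). It lost its call without sEILP replicate 2 (0.0630). In the MHC class II list 2 of 10 genes were called lower although the median was 1.13: H2-DMa, a peptide exchange factor, from 7.77 and 8.16 to 5.82 and 6.16 (adjusted p = 0.00622), and H2-Ob, its inhibitor's chain, from 8.03 and 7.79 to 5.56 and 6.52 (adjusted p = 0.0130). H2-DMa lost its call without sEILP replicate 2 or ILCP replicate 1 (up to 0.0674), and H2-Ob in all but the case without ILCP replicate 2 (up to 0.133).

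**Figure D3:**
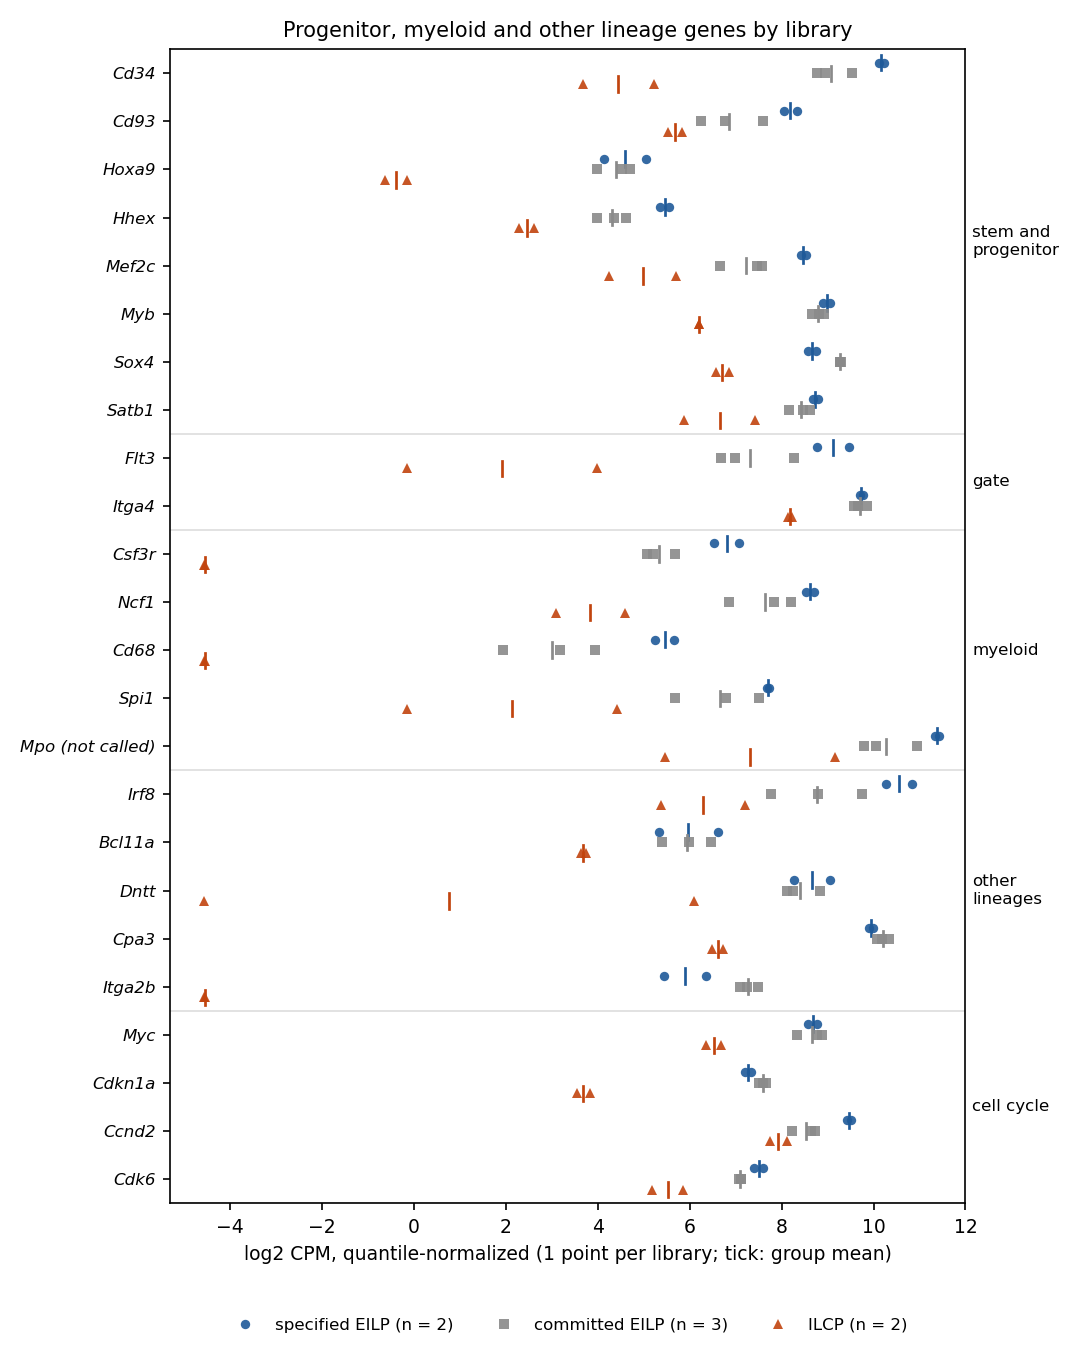
Log2 CPM, quantile-normalized (x axis), of progenitor, gate, myeloid, other lineage and cell cycle genes in each sEILP (circles, n = 2), cEILP (squares, n = 3) and ILCP (triangles, n = 2) library, with a tick at each group's mean. The ILCP libraries lie to the left of the sEILP libraries for all 24 genes drawn, and those at the left edge are at the lowest value; Mpo was not called.

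Genes of growth and the cell cycle were called at a few points. Of 28 genes of DNA replication and mitosis, 13 had both ILCP libraries below both sEILP libraries and 3 had both above. The shares over all tested genes were 26.2% and 27.0%. With a median of -0.23, none of the 28 was called higher and 1 was called lower, against 3.07% of all tested genes. It was Mcm7, a helicase subunit, which fell from 9.48 and 9.73 to 8.82 and 8.19 (adjusted p = 0.0141) and kept its call only without ILCP replicate 1 (up to 0.120). Of 11 D cyclins, their kinases and inhibitors, 3 were called lower and none higher, against 3.07% and 1.86% of all tested genes. Their median was 0.15 and turned negative in 9 other settings. Cdkn1a, the inhibitor p21, fell from 7.21 and 7.34 to 3.54 and 3.83, 12.8-fold (adjusted p = 7.69e-05). Ccnd2, a D cyclin, fell from 9.50 and 9.42 to 7.74 and 8.12 (adjusted p = 0.00957), and Cdk6, its kinase, from 7.60 and 7.40 to 5.86 and 5.18 (adjusted p = 0.0156). The called genes thus include both activators and an inhibitor of the cell cycle. Cdkn1a held without any single library, Ccnd2 only without ILCP replicate 2 (up to 0.106), and Cdk6 lost its call without either sEILP library (up to 0.115). Myc, the growth-promoting factor that Notch controls in T cell progenitors, fell from 8.78 and 8.57 to 6.36 and 6.69 (adjusted p = 0.00104), the only one of 15 Notch pathway genes called, and held without any single library.

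Translation and metabolism lists moved by small amounts. Of 78 cytosolic ribosomal protein genes 2 were positive, against 46.7% of all tested genes, and the median was -0.59. In 73 both ILCP libraries lay below both sEILP libraries, against 26.2% of all tested genes, and 6 were called lower, against 3.07%. The lowest adjusted p among these 6 was that of Rps4x, which fell from 8.98 and 9.09 to 8.13 and 7.86 (adjusted p = 0.0119). Rpl4 fell from 10.18 and 10.13 to 9.60 and 9.70 (adjusted p = 0.0175) and Rpl3 from 9.94 and 9.94 to 9.31 and 9.18 (adjusted p = 0.0204). Rps25 and Rpl10a were also among them. None of the 6 held in the fit of the 4 libraries alone or without either sEILP library, and the list's median stayed between -0.61 and -0.39 over all settings tried. Many of these genes have near-identical pseudogenes that can share their reads. Glycolysis genes had 4 of 20 called higher, against 1.86% of all tested genes, and none lower, with a median of 0.60 against -0.08. Pkm, pyruvate kinase, rose from 9.55 and 9.57 to 11.10 and 10.77, 2.67-fold (adjusted p = 0.000771), and Eno1, enolase, from 9.27 and 9.35 to 10.62 and 10.62, 2.41-fold (adjusted p = 0.000684). Aldoa, an aldolase, rose from 8.87 and 8.82 to 9.86 and 9.56 (adjusted p = 0.0269), and its paralog Aldoc was at the lowest value in both sEILP libraries and 5.85 and 5.25 in ILCP (adjusted p = 0.0287). Pkm and Eno1 held without any single library, Aldoa only without ILCP replicate 2 (up to 0.217) and Aldoc in no case (up to 0.136). Of 79 oxidative phosphorylation genes 1 was called, Cox6a2, with a median of -0.23, and of 15 mitochondrially encoded genes limma called none, with a median of -0.43 that changed sign in 1 other setting.

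Survival and signalling lists gave scattered calls, where 1.86% of all tested genes were called higher and 3.07% lower. Of 14 Bcl2 family genes 3 were called higher and 1 lower. Bid, a BH3-only death activator, fell from 7.39 and 7.62 to 4.91 and 4.80, 6.31-fold (adjusted p = 0.00108), and held without any single library. Mcl1, a survival protein, rose from 7.65 and 7.61 to 8.88 and 7.96 (adjusted p = 0.0301) and kept its call only without ILCP replicate 2 (up to 0.268). Bik, a BH3-only protein, was -3.29 and -3.86 in sEILP and 3.98 and 3.31 in ILCP (adjusted p = 0.0318), and Bcl2a1d, one of several near-identical copies that share reads, was at the lowest value in sEILP and 2.58 and 3.82 in ILCP (adjusted p = 0.0164). Bik lost its call whichever library was left out (up to 0.153), and Bcl2a1d without either sEILP library (up to 0.0994). Bcl2a1d failed the filter on low values without either ILCP library, so it entered the test only through the group where it was high and its call supports nothing. In the NF-kappaB pathway 1 of 18 genes was called higher and 1 lower. Nfkb1, which encodes p105 and p50, fell from 9.71 and 9.66 to 7.39 and 7.38 (adjusted p = 0.000663), and Nfkbiz, a nuclear cofactor, was at the lowest value in both sEILP libraries and 4.91 and 5.41 in ILCP (adjusted p = 0.00905). Within batch 1 alone Nfkbiz failed the filter on low values, so its call is weak support. Nfkb1 held without any single library, and Nfkbiz lost its call without either sEILP library (up to 0.0638). Of 21 interferon response genes 1 was called lower, Gbp3, at 6.86 and 6.94 in sEILP and 4.81 and -0.14 in ILCP (adjusted p = 0.0354), which lost its call without either sEILP library (up to 0.154). Among 15 early response genes, which respond to cell handling, limma called none, with 1 called by the fit of the 4 libraries alone.

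**Figure D4:**
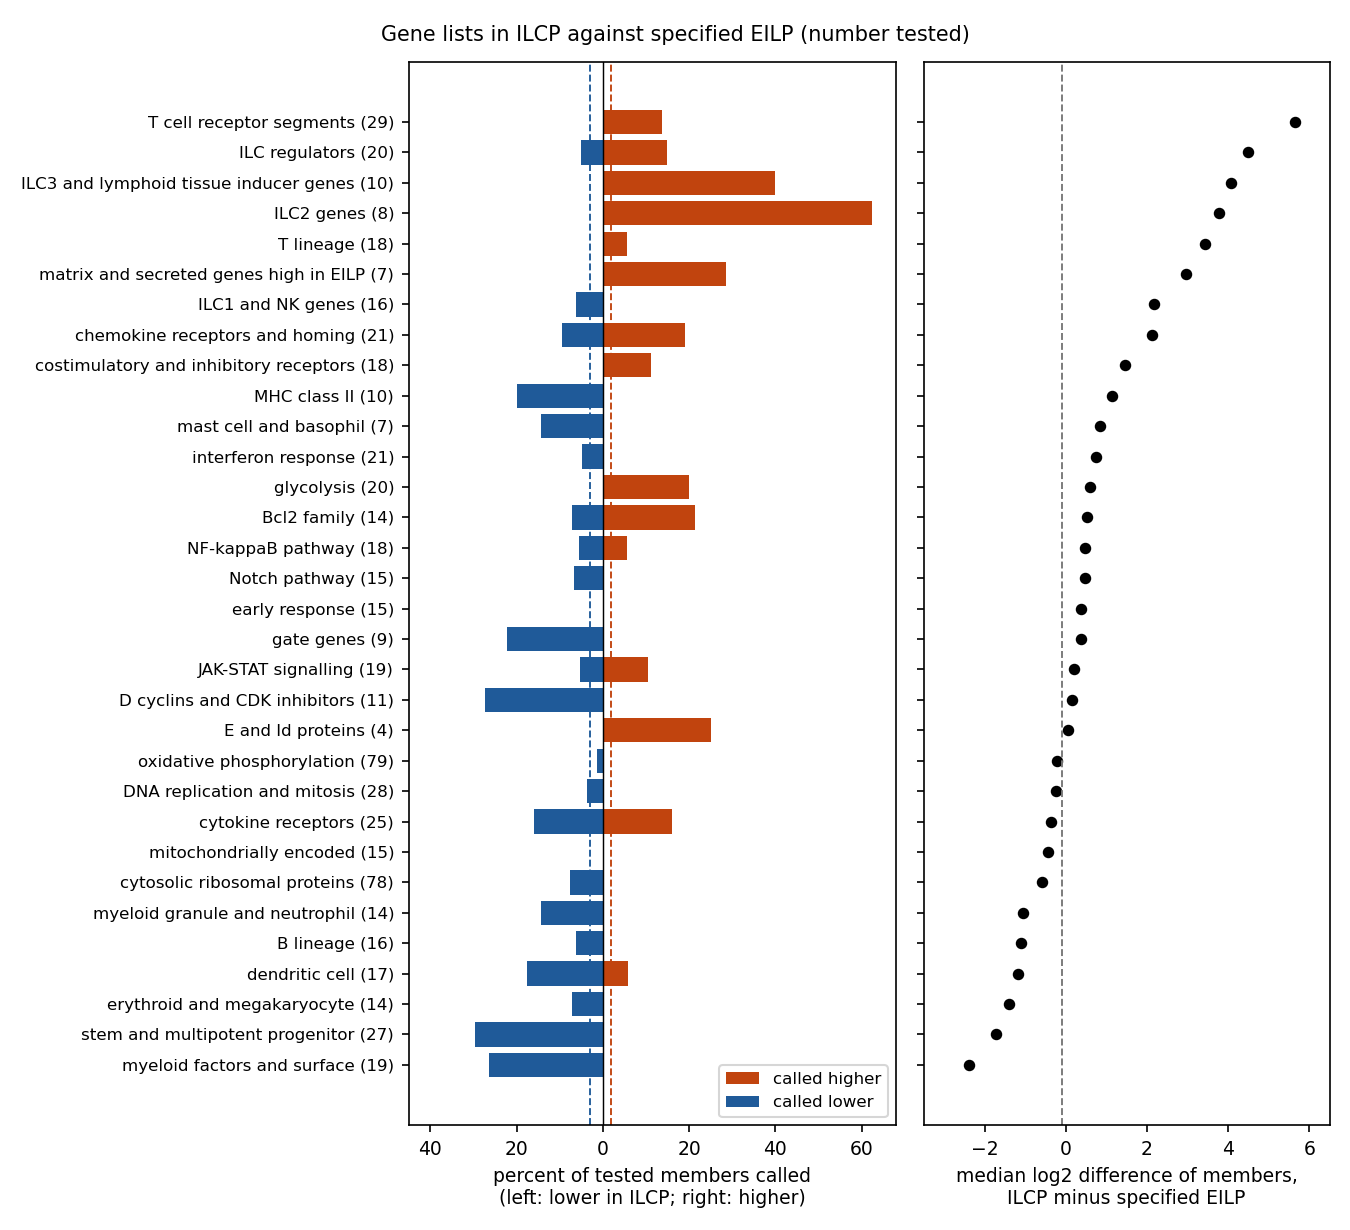
Share of tested members called higher (right, orange) or lower (left, blue) in ILCP for 32 gene lists, in percent with the number tested in brackets, and the median fitted log2 difference of each list (right panel); dashed lines mark 1.86%, 3.07% and -0.08, the values over all tested genes. The T cell receptor, ILC regulator, ILC3 and ILC2 lists have the highest medians (5.64, 4.49, 4.06 and 3.78) and the myeloid and stem lists the lowest (-2.38 and -1.71).

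Some list medians moved widely over the settings run. That of the ILC regulators ranged from 2.54 to 4.61, that of the T cell receptor segments from 3.25 to 6.59, that of the ILC1 and NK genes from 1.27 to 2.78 and that of the glycolysis genes from 0.21 to 0.74. The medians of the stem and myeloid lists ranged from -2.22 to -1.25 and from -3.23 to -1.65.

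Other genes with small p among those above the lowest value in all 4 libraries were named by rule and not by pathway. Plekhb2, a membrane trafficking protein, rose from 6.10 and 5.96 to 8.76 and 8.95, by 2.88 ± 0.27 SE (adjusted p = 9.55e-05). Cd82, a tetraspanin, rose from 5.44 and 5.65 to 10.06 and 9.83, 20.1-fold (adjusted p = 0.000304). Slc9a9, an endosomal sodium and proton exchanger, rose from 6.31 and 6.39 to 8.95 and 8.62 (adjusted p = 0.000183), Rftn1, a lipid raft protein, from 8.03 and 7.97 to 9.71 and 9.74 (adjusted p = 0.000348), and Shisa5 from 8.04 and 7.79 to 10.19 and 10.03 (adjusted p = 0.000607). Tmem154 rose from 5.89 and 4.56 to 9.39 and 9.58 (adjusted p = 0.000463) and Fam129a, which encodes Niban, from 4.69 and 4.34 to 9.20 and 9.71, 27.2-fold (adjusted p = 0.000554). In the other direction, Plac8, a small cysteine-rich protein of early lymphoid and myeloid cells, fell from 10.66 and 10.62 to 6.18 and 5.86, 22.2-fold (log2 difference -4.47 ± 0.24 SE, adjusted p = 1.76e-06). H2afy, the histone variant macroH2A1, fell from 11.58 and 11.58 to 9.27 and 9.16, 4.85-fold (adjusted p = 1.81e-06). Cd24a, a surface glycoprotein, fell from 8.17 and 8.37 to 3.81 and 4.46, 17.0-fold (adjusted p = 4.67e-05), Idh2, the mitochondrial isocitrate dehydrogenase, from 9.32 and 9.45 to 7.52 and 7.35 (adjusted p = 6.44e-05), and Gpr97, an adhesion receptor of granulocytes, from 8.61 and 8.94 to 5.56 and 5.71 (adjusted p = 9.76e-05). All 12 genes of this paragraph held their calls without any single library.

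The largest fitted rises came from genes with sEILP at or near its lowest value. Stab2, a scavenger receptor for hyaluronan, was at the lowest value in both sEILP libraries and 9.88 and 10.10 in ILCP (adjusted p = 0.00738). Nmur1, the neuromedin U receptor of ILC2, was at the lowest value in sEILP and 7.64 and 7.46 in ILCP (adjusted p = 0.0336). Pxdc1, with a phosphoinositide-binding domain, reached 7.93 and 7.42 (adjusted p = 0.00448), Plxdc2, a transmembrane protein, 7.79 and 7.56 (adjusted p = 0.0225), Adam12, a membrane metalloprotease, 5.99 and 6.57 (adjusted p = 0.0235), and Fbxo27, an F-box protein, 5.79 and 5.78 (adjusted p = 0.0144), all from the lowest value in both sEILP libraries. Only Pxdc1 of these 6 held without any single library. Within batch 1 alone Pxdc1 failed the filter on low values, as only its ILCP library reached a log2 value of 0. Its stability is therefore weak support. Adam12 held in no case (up to 0.121), Plxdc2, Fbxo27 and Nmur1 only without ILCP replicate 2 (up to 0.134, 0.0923 and 0.198), and Stab2 was lost without either sEILP library (up to 0.0546).

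The largest fitted falls came from genes with ILCP at or near its lowest value. Sh2d5, an adaptor protein, was 6.91 and 6.84 in sEILP and 5.99, 6.28 and 6.03 in cEILP, and Drc7, a dynein regulator, was 6.66 and 6.20 in sEILP and 6.28, 6.54 and 5.80 in cEILP; both were at the lowest value in both ILCP libraries (adjusted p = 1.76e-06 for each). Il12a, the p35 chain of IL-12, was 5.87 and 5.67 in sEILP (adjusted p = 1.71e-05), Cercam 5.76 and 6.28 (adjusted p = 3.93e-06), Ak4, an adenylate kinase, 5.57 and 5.46 (adjusted p = 3.45e-05), and Tle6, a corepressor, 5.44 and 5.27 (adjusted p = 6.44e-05). Rab38, a GTPase of lysosome-related organelles, was 5.41 and 5.80 (adjusted p = 6.44e-05), Slc4a8, a bicarbonate transporter, 5.74 and 6.13 (adjusted p = 0.000348), and Zfp184, a zinc finger protein, 5.19 and 5.42 (adjusted p = 0.000105). All 7 were at the lowest value in both ILCP libraries. Rab44, a GTPase of granule release, was 7.61 and 8.10 in sEILP and -4.55 and -0.14 in ILCP, the first of these the lowest value (adjusted p = 0.000105). These 10 genes held their calls without any single library. For all but Rab44, leaving out either ILCP library hardly changes the ILCP level, as both are at the lowest value. The genes were also chosen as the largest falls of this fit, so their stability is weak support.

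A small list of secreted, matrix and related genes that is high in EILP had 2 of 7 called higher in ILCP and none lower, with a median of 2.97, or -1.40 without the 2 genes at the lowest value throughout a group. All tested genes had 1.86% called higher and a median of -0.08. Angptl2, an angiopoietin-like secreted protein, was at the lowest value in both sEILP libraries, 3.15, 5.20 and 4.49 in cEILP and 6.37 and 6.05 in ILCP (adjusted p = 0.000720), and held without any single library. Rxrg, a retinoid receptor, was 1.83 and -4.83 in sEILP, 7.02, 6.56 and 5.97 in cEILP and 7.93 and 8.43 in ILCP (adjusted p = 0.0110), and lost its call without ILCP replicate 1 (0.0644). The list was chosen from results on these libraries, so its direction is not independent evidence.

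Where along the path the change lay was asked with cEILP as the middle point. In the same limma model 338 genes were higher and 594 lower in ILCP than in cEILP, while between cEILP and sEILP limma called 0 genes, with 647 at an unadjusted p under 0.05. These 2 comparisons share the cEILP libraries. The sEILP and cEILP cells shared a genotype, while ILCP came from another, so only the comparison of ILCP with cEILP crosses strains. A larger second step therefore cannot be told apart from reporter strain. The step test, which asks whether the change from cEILP to ILCP differs from that from sEILP to cEILP, called 31 genes positive (0.247%) and 85 negative (0.676%), with 1571 at an unadjusted p under 0.05. Of the 234 genes higher in ILCP than sEILP, 19 passed it in the same direction, and of the 386 lower genes 74 did. Limma called none in the opposite direction. Single libraries moved these counts: the step test called 8 positive and 23 negative genes without sEILP replicate 1, 19 and 51 without sEILP replicate 2, 49 and 275 without ILCP replicate 1, and 31 and 231 without ILCP replicate 2. Without cEILP replicate 1, 2 or 3 it called 9, 16 or 13 positive and 27, 18 or 36 negative. The fitted second step was the larger one in 190 of the 234 and in 373 of the 386, and the cEILP mean lay between the other means in 162 and 276.

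Genes that passed the step test upward included Ccr9 (step test adjusted p = 0.0306), Ltb (0.0244), Ifngr1 (0.0132) and Shisa5 (0.00617). Anxa6, a membrane-binding annexin, was 8.36 and 7.68 in sEILP, 6.96, 7.00 and 6.38 in cEILP and 9.92 and 9.94 in ILCP, with every cEILP library below both others (step test adjusted p = 0.000751). Btg1, an antiproliferative protein, was 6.71 and 6.71, then 5.84, 5.94 and 6.10, then 8.38 and 8.66 (step test adjusted p = 0.00628). Tmem176a was 6.58 and 6.18, then 5.13, 6.03 and 5.33, then 8.79 and 8.67 (step test adjusted p = 0.00715). Among falls, the step test passed for Sox4 (adjusted p = 0.000420), Cd24a (0.00164), Cdkn1a (0.00229), Plac8 (0.00122), Myb (0.00715), Cd34 (0.00715), Csf3r (0.00617), Cpa3 (0.0262) and Myc (0.0449). For Gata3, Rora, Bcl11b and Id2 the steps were not told apart (step test adjusted p = 0.960, 0.977, 0.448 and 0.392). Over 18 other settings, Anxa6, Btg1, Shisa5, Sox4, Cd24a, Cdkn1a and Plac8 passed the step test each time, Tmem176a in 17, Csf3r and Myb in 16, Cd34 in 15, Ifngr1 in 12, Ltb and Cpa3 in 10, Ccr9 in 9 and Myc in 7.

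**Figure D5:**
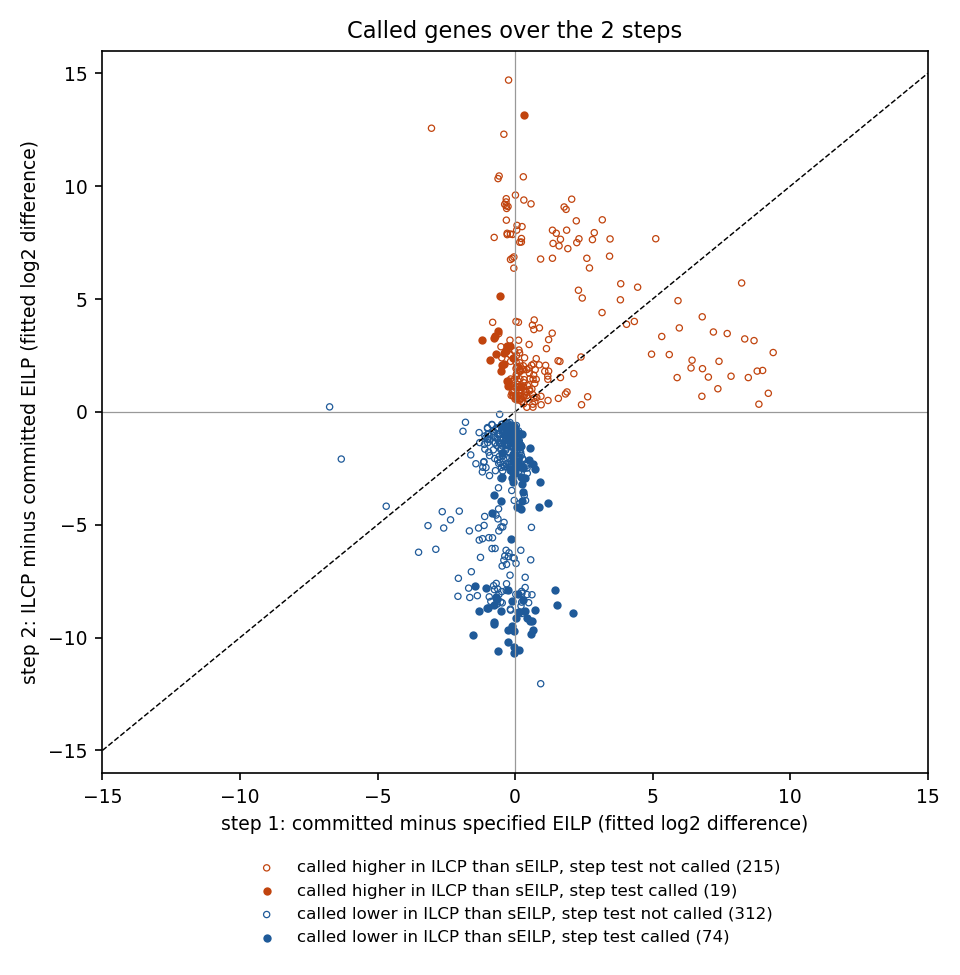
Fitted log2 difference of cEILP minus sEILP (x axis) and of ILCP minus cEILP (y axis) for the 620 genes called between ILCP and sEILP, with orange for the 234 higher and blue for the 386 lower genes and filled points for those that passed the step test (19 and 74); on the dashed line both steps are equal. The second step was the larger one in 190 orange and 373 blue points, and both axes share the cEILP libraries. Only the y axis compares cells of different reporter genotypes.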

How the data were processed

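Total RNA of sorted bone marrow cells was made into libraries with the SMARTer Ultra Low Input and Nextera XT kits, per the labels' protocols. Tools listed in the submitters' processing notes are RSEM 1.2.23, STAR 2.5.2b, bcl2fastq 2.17 and limma, with the build mm10; the annotation is not given in the sources used here. The authors deposited log2 values of 12798 genes in 15 libraries. Their normalization is not given in the sources used here; the values share nearly 1 distribution and linear totals close to those of CPM, and were read as quantile-normalized log2 CPM. Without counts the depth per library is unknown. The same table has 24 further columns without name or values, which were not used.

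Genes that reached a log2 CPM of 0 in 2 or more libraries were fitted with limma 3.58.1 (R 4.3.3) over 6 groups with the batch as a term and an intensity trend, with Benjamini-Hochberg adjustment and a threshold of 0.05, after the code was tested on simulated data. The difference was the ILCP minus the sEILP coefficient, and the step test was ILCP plus sEILP minus 2 times cEILP. Named were the gate genes, the called members of each list, the 12 largest rises and falls, and the 10 rises and 10 falls of smallest p among genes above the lowest value in all 4 libraries, each of at least 1 log2 unit. Further genes that were not called, and genes of the step test, were named after their values were seen. Some called members of the lists are counted but not reported here by name. Members and lists were chosen with earlier results of these data known, and the Y-linked term was chosen after seeing the data. Replicate numbers were not used as pairs in the main fit. The difference between replicates 1 and 2 had a correlation of 0.03 between the stages over genes. With ILCP replicate 2 in another batch than replicate 1, this cannot show whether the libraries were paired. Promoter sequence is from RefSeq on GRCm38.p6, the same assembly as mm10.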

Additional observations from a re-analysis of the deposited data

How the results depend on the processing

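With 2 libraries a group, the counts depend on each library. Against 234 genes higher and 386 lower, and 31 positive and 85 negative in the step test, leaving out 1 library gave 82 to 147 higher, 153 to 549 lower, 8 to 49 positive and 18 to 275 negative. An arm then holds 1 library, which is assumed to vary like the other groups. Batch 1 alone gave 125 higher, 644 lower and 14 positive. A pseudocount of 1 gave 362 higher, and no intensity trend 227 lower. The Y-linked term gave 101 higher, 232 lower, 8 positive and 22 negative, and Il7r went from 3.62 to -0.20 (limma adjusted p = 0.979). The causes were not tested. With the replicate block in place of the batch, 243 genes were higher and 377 lower, and the step test called 14 and 43. In the 4 libraries alone the replicate block left 7 higher and 1 lower, against 286 and 316 without it, with 1 residual degree of freedom. Of the 620 genes, 216 were called in common without sEILP replicate 1, 217 without sEILP replicate 2, 316 without ILCP replicate 1 and 418 without ILCP replicate 2. Of 116 called genes followed by name, 61 held without any single library, and none changed direction in any of the settings run. Depth is unknown, so the detection limit behind each library's lowest value is unknown too.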

Other observations

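Some genes differed in their steps without a called difference between ILCP and sEILP: 12 were positive and 11 negative in the step test. Cd74, the invariant chain of MHC class II, was 8.75 and 8.14 in sEILP, 5.96, 6.38 and 3.11 in cEILP and 10.24 and 9.07 in ILCP, lowest in the middle stage (limma step test adjusted p = 0.0180). Mycn, a relative of Myc, was 7.09 and 7.41, then 8.28, 8.23 and 8.44, then 6.38 and 6.53 (adjusted p = 0.0244), and Runx3, a factor of ILC and cytotoxic lymphocytes, 7.21 and 7.60, then 8.31, 7.82 and 7.94, then 6.43 and 6.86 (adjusted p = 0.0297). Both had every cEILP library above the sEILP and ILCP libraries. Lfng, a glycosyltransferase that modifies Notch, was 5.14 and 4.91 in sEILP, 3.57, 3.30 and 4.52 in cEILP and 6.56 and 6.72 in ILCP (adjusted p = 0.0180). These genes were chosen after their values were seen. Of 18 other settings, Lfng passed in 14, Cd74 in 13, and Mycn and Runx3 in 10, with adjusted p up to 0.143.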
